A study of Mus musculus with 3 samples.

Results

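The regions described here were 2468 Foxc1 peaks of the glomerulus that lay inside genes and carried no Foxc2 peak. They were chosen by peak calls and position alone. A Foxc1 peak was a member when no Foxc2 peak shared 1 bp with it, its summit lay inside the span of a protein-coding RefSeq gene, and that summit was more than 1 kb from every protein-coding gene end. Members made up 2468 of the 5207 Foxc1 peaks on chromosomes 1 to 19, X and Y, and 2468 of the 4780 Foxc1 peaks without Foxc2. The remaining Foxc1-only peaks comprised 451 within 1 kb of a gene end, 1114 between genes but within 50 kb of a gene end, and 747 farther out. A further 178 Foxc1 peaks lay inside gene bodies and did overlap a Foxc2 peak. The overlap and the place of the members were therefore set by the rule and are not findings.

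Chromatin of kidney glomeruli, the filtration units of the kidney, was immunoprecipitated with an antibody to Foxc1 from CST and, separately, with an antibody to Foxc2 from R&D Systems. All material came from C57BL/6 mice at 8 weeks, with no genetic change or treatment named. There was 1 library per antibody, and an input DNA library, which was not analysed here. Values below have no replicate, so no test between groups was made, and intervals are exact 95% limits that cover counting error only. Whole glomeruli hold podocytes, mesangial cells, endothelium and the parietal cells of Bowman's capsule, so a peak cannot be assigned to one of these. Read depth is unknown for peak lists, and its part in how many Foxc1 peaks lack a Foxc2 peak was not tested.

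Foxc1 and Foxc2 are closely related forkhead transcription factors with nearly identical DNA-binding domains. Both are known from the development of the kidney, vessels and eye, and both are active in podocytes, the epithelial cells that cover the glomerular capillaries with interlocking foot processes. Forkhead proteins contact a short core read as TGTTTA, usually followed by C, and often bind within introns and other sites far from the start of transcription.

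A small set of members could be read at the level of sequence. RefSeq start windows of GRCm38.p6 (the mm10 assembly) span 250 bases before to 50 bases after an annotated start, and 24 members (0.972%) had a summit in such a window inside a gene body. For 16 of them the window belonged to the host gene itself, at an internal start, and for the others to an overlapping gene. The forkhead core TGTTTA, read on both strands, occurred in 12 of these 24 windows (50%, 29.1 to 70.9%), beside 13.4% of all 32817 windows of the same length and 13.8% of the 6671 windows inside gene bodies. The longer form TGTTTAC, which contains the core, occurred in 8 of 24 (33.3%, 15.6 to 55.3%), beside 3.65% of all windows. In the windows with a core, the nearest one lay 5 to 95 bp from the summit, with a median of 20 bp, and within 15 bp in 6 of 12. Sequences of 250 bases before the start follow for 5 of these 6 members and for 1 without a core, each written 5′ to 3′ in the direction of transcription, with the core TGTTTA or its reverse complement TAAACA in capitals. The sixth, inside Nfia, is not printed because its core crosses the start.
Hdac7: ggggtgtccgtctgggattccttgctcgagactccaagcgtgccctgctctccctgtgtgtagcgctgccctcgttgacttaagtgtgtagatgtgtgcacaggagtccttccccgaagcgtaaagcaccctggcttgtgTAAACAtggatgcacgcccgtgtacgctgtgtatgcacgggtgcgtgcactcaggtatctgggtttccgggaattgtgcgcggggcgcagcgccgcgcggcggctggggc
Adipor2: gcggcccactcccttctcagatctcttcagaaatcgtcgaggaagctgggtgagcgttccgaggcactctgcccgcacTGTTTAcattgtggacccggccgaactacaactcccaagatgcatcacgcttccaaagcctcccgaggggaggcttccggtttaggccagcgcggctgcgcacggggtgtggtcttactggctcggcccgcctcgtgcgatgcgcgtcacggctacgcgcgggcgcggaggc
Map6: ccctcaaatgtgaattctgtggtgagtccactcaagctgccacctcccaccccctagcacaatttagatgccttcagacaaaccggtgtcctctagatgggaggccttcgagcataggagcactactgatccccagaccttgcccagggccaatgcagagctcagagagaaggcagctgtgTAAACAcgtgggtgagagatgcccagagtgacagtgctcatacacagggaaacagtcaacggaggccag
Psen2: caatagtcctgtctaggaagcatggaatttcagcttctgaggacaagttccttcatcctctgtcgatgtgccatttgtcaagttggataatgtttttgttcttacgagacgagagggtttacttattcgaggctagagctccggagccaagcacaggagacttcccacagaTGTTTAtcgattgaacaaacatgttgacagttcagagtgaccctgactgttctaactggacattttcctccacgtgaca
D2hgdh: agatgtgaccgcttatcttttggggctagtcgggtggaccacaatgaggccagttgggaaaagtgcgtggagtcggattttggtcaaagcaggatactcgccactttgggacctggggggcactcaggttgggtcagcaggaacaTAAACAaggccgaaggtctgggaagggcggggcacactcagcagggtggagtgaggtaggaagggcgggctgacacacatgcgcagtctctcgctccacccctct
Psmf1: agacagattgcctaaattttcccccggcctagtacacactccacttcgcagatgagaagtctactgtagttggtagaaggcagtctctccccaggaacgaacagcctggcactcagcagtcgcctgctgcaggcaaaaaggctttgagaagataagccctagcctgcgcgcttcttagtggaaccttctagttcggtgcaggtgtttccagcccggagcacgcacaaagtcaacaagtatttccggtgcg

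The Hdac7 sequence (chr15:97831768-97832017, minus strand) lay under the strongest of the 24 peaks, with a fold enrichment of 17.1. Fold enrichment, a ratio deposited by the authors, compares the summit with its local background. Hdac7 encodes a class II histone deacetylase of endothelium, and its core was 7 bp from the summit. Adipor2, an adiponectin receptor gene (chr6:119388735-119388984, minus strand), had a fold of 9.67 and a core 6 bp from the summit. The window inside Map6, which encodes a microtubule-stabilising protein, belonged to the predicted gene Gm40449 (chr7:99305243-99305492, minus strand) and had a fold of 8.54 and a distance of 7 bp.

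Psen2 encodes presenilin 2, a catalytic subunit of the protease that cleaves Notch receptors. Its window (chr1:180245951-180246200, minus strand) had a fold of 6.33 and a core 14 bp from the summit. D2hgdh, a mitochondrial dehydrogenase gene (chr1:93824990-93825239, plus strand), followed with 5.22 and 13 bp. The window inside Nfia, a transcription factor gene, belonged to Gm19417, with a fold of 3.71 and a core 5 bp from the summit. Psmf1, which encodes a proteasome inhibitor (chr2:151741311-151741560, minus strand), had the second-highest fold of the 24, 13.3, and held no TGTTTA in its window.

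Of 18 motifs searched on both strands, the share over all windows lay outside the interval of the 24 member windows for these 2 overlapping forkhead forms and inside it for the other 16. A variant forkhead core, TATTTAC, was in 0 of 24 (up to 14.2%), beside 3.04% of all windows. The AP-1 motif TGANTCA was in 1 of 24 (4.17%, beside 7.81%) and the TEAD motif GGAATG in 4 (16.7%, beside 14.7%). The nuclear factor I motif TTGGC was in 16 (66.7%, beside 46.7%), with an interval of 44.7 to 84.4%. The E-box CANNTG was in 75% (beside 72.3%), its form CAGCTG in 25% (16.3%), the ETS motif CCGGAA in 20.8% (14.9%) and the SP/KLF motif GGGCGG in 37.5% (35.6%). The WT1/EGR motif GNGGGNG was in 45.8% (64.7%), the LMX1B motif TAATTA in 4.17% (5.30%), the GATA motif AGATAA in 16.7% (11.2%) and the RUNX motif TGTGGT in 20.8% (16.8%). The SOX motif ACAANNG was in 45.8% (37.9%), the nuclear receptor motif AGGTCA in 16.7% (16.3%), the glucocorticoid receptor motif TGTTCT in 29.2% (19%) and the MEF2-type motif in 0% (3.69%). Some of these motifs share letters and can overlap. A match is a run of letters and not a measured binding site, and these windows represent only the members at annotated starts.

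Windows of other peak classes gave a comparison. TGTTTAC was in 34 of 114 windows of Foxc1-only peaks at gene ends (29.8%, 21.6 to 39.1%) and in 4 of 11 windows of shared peaks in gene bodies (36.4%, 10.9 to 69.2%). Foxc1-only peaks outside genes had it in 2 of 10 windows near a gene end (20%, 2.52 to 55.6%) and in 2 of 11 farther out (18.2%, 2.28 to 51.8%), and all 4 intervals include the 33.3% of the members. It was in 1 of 110 windows of Foxc2 peaks inside gene bodies without Foxc1 (0.909%, 0.0230 to 4.96%). Median GC content differed as well, at 55.5% for the windows of members and 71.7% for those Foxc2-only peaks, beside 52.7% over all windows. The part of base composition in the motif shares was not tested.

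The members were mostly of moderate height. Their median fold was 4.88 (interval 4.75 to 4.90), with quartiles of 4.11 and 6.33, a lowest value of 2.44 and a highest of 39.2. A fold of 10 or more was reached by 234 members (9.48%, 8.35 to 10.7%). Width had a median of 327 bp, from 232 to 1426 bp. Foxc1-only peaks elsewhere were alike in height, with medians of 5.06 at gene ends, 4.90 between genes near an end and 4.75 farther out, and shares at 10-fold or more of 10.4, 9.96 and 9.37%. Shared peaks inside gene bodies were higher, with a median of 5.70 (5.20 to 6.33) and 23.6% at 10-fold or more (17.6 to 30.5%). They were also wider, with a median of 392 bp, and the difference in height was not tested.

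**Figure D1:**
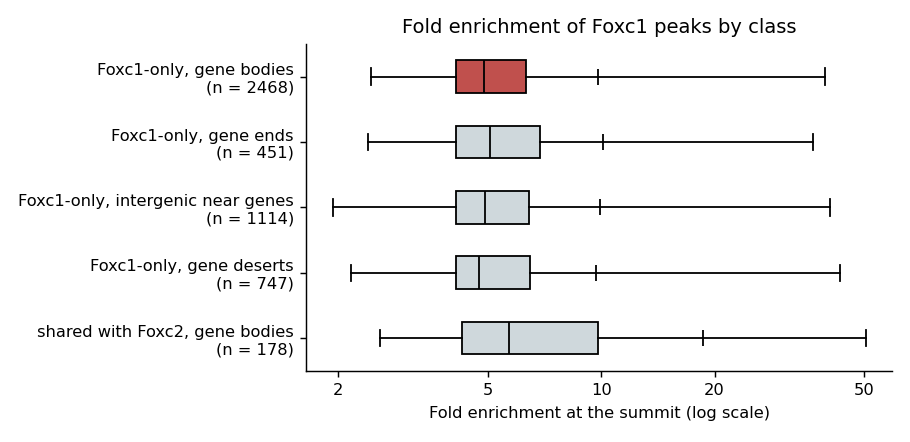
Fold enrichment at the summit (log axis) of Foxc1 peaks in 5 classes, with boxes for quartiles and median, whiskers to the lowest and highest peak and a further tick at the 90th percentile. Members, in red, have a median of 4.88 like the other Foxc1-only classes, and shared peaks in gene bodies one of 5.70.

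Height varied little with place. Median folds were between 4.75 and 4.90 at 1 to 5 kb, 5 to 20 kb, 20 to 100 kb and beyond 100 kb from the start of the gene span. Among the 47 members with a Foxc2 peak within 1 kb the median was 5.05, and 8 (17.0%) reached 10-fold. Of the 1783 members more than 50 kb from Foxc2, 160 (8.97%) did. The first share rests on only 8 peaks, and the difference was not tested.

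The strongest member lay in Atp1b2, which encodes a beta subunit of the sodium-potassium pump (chr11:69603313-69604065), with a fold of 39.2, 2.28 kb from a gene end. Tinagl1, a matrix protein gene (chr4:130168080-130168878), followed with a fold of 38.6. Farp1, which encodes a FERM-domain protein (chr14:121108304-121108917), had 37.3 at 73.45 kb from an end, and its 5 other members had folds of 16.8, 6.01, 4.11, 12.5 and 5.25. Snd1, which encodes an RNA-binding nuclease of the silencing machinery (chr6:28497712-28498410), had 37.2. Eif4b, a translation initiation factor gene, had 36.9, and Trib2, a pseudokinase gene, had 36.5. These 6 folds spanned 36.5 to 39.2 and sat in genes of unlike function.

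The next members by fold were in Thada (34.0), in Fras1, the extracellular matrix gene of Fraser syndrome (33.7), in Cep57l1 (32.9) and in Cstad (31.1). Atp2c2, a calcium and manganese pump of the secretory pathway, had 31.0. Prickle2, a planar cell polarity gene, had 26.8, Rapgef1, an exchange factor for Rap GTPases, 25.9, and Hivep1, a zinc finger gene, 25.3, the same as Atxn7l1. Of the 15 strongest members, 2 had a Foxc2 peak within 10 kb, beside 256 of all 2468 members (10.4%). The 2 were in Eif4b, with a gap of 9.94 kb, and in Trib2, with a gap of 4.18 kb.

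The 2468 members lay in 1743 host genes, 7.96% of the 21887 protein-coding genes and 9.03% of the 19304 whose span exceeds 2 kb. Hosting rose with gene length. A member was held by 0.77% of genes of 10 kb or less, 3.92% of those of 10 to 30 kb, 12.0% at 30 to 100 kb, 31.2% at 100 to 300 kb and 42.5% above 300 kb. The median span was 93.1 kb for hosts and 17.2 kb for all protein-coding genes. Counted per megabase of whole gene span, the same classes held 1.90, 2.29, 2.66, 3.00 and 1.69 members, a much narrower range. That span includes the 1 kb at each end, where the rule allows no member, which lowers the values most for short genes. Genes above 300 kb thus held members most often and, per megabase of span, least densely.

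**Figure D2:**
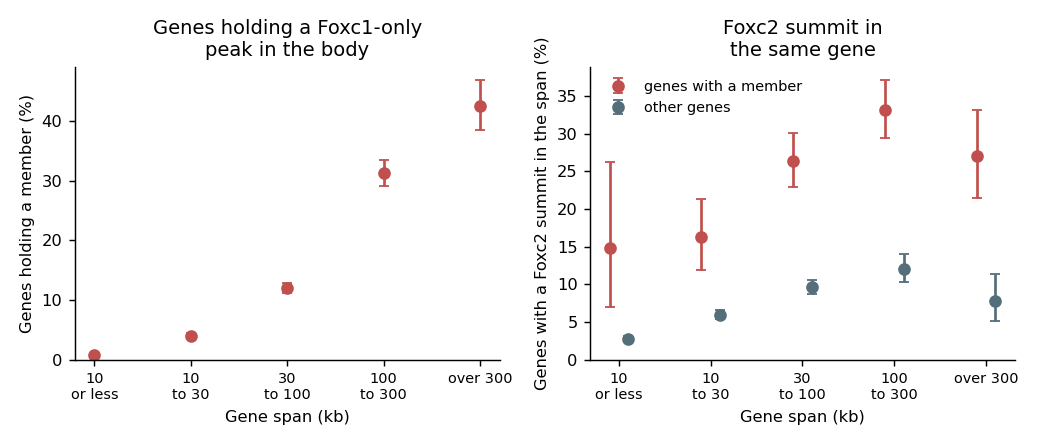
Left, the percentage of protein-coding genes in each span class (kb) that hold a member, and right, the percentage of hosts and of other genes with a Foxc2 summit in the span, with exact 95% intervals as bars. Hosting runs from 0.77% to 42.5% across the classes, and hosts carry Foxc2 more often than other genes in each class.

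Most hosts had a single member. There were 1301 hosts with 1 member and 442 with 2 or more (25.4%, 23.3 to 27.5%), and the latter held 1208 of the members (48.9%). Hosts with 4 or more numbered 69, with a median span of 353 kb. Nearly all members, 2439, had 1 host, 27 lay in 2 overlapping genes and 2 lay in more, 1 of them inside 24 nested spans of the gamma protocadherin cluster with a fold of 12.5.

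Rbpms was the densest of the 10 hosts with the most members, although some short genes with fewer members were denser. This gene encodes an RNA-binding protein of smooth muscle and other contractile cells, and 9 members lay in its 147 kb, or 6.11 per 100 kb. Their folds, from the lower coordinate upwards, were 6.96, 6.80, 7.12, 10.5, 5.89, 4.27, 4.54, 3.57 and 4.50. Rbpms also held 6 Foxc2 peaks and 3 shared Foxc1 peaks. Lrmda and Prkg1 held 9 members each in spans of 1037 and 1201 kb. Prkg1 encodes the cyclic GMP-dependent kinase of smooth muscle and mesangial cells. Its members lay 218 to 674 kb from the start, had folds of 3.80 to 6.49, and were accompanied by 0 Foxc2 peaks.

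Transcription factor and chromatin genes were among the 10 hosts listed as having the most members. In this list 10 genes tied at 7 members, of which the 4 with the highest single fold were taken. Mecom, a zinc finger factor gene of blood stem cells and endothelium, held 8, the strongest at 13.1, and 0 Foxc2 peaks. Arid1b, a subunit gene of the BAF chromatin remodeller, held 8, none above 7.0. Arid5b, an AT-rich interaction domain gene, held 7 in 187 kb, or 3.75 per 100 kb, with folds up to 10.6.

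Ror1, a receptor for Wnt5a, held 8 members, with folds of 12.8 and 9.02 at 226 and 335 kb from its start. Prkce, which encodes protein kinase C epsilon, held 7, the strongest at 18.5. Rbms3, an RNA-binding protein gene, held 7, with 11.2 and 10.3 as the highest folds. Gmds encodes the enzyme that begins the synthesis of GDP-fucose and lies 8.95 kb from the gene Foxc1, a neighbour noticed after the values were seen. It held 7 members, of folds 5.06, 4.86, 3.81, 4.75, 3.48, 13.4 and 5.06, and 0 Foxc2 peaks. Of the 16 hosts with 7 or more members, 7 had no Foxc2 summit in the span. Most hosts lacked one, since a Foxc2 summit was present in 468 of all 1743 hosts (26.9%). Among hosts with 4 or more members it was present in 52.2%.

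**Figure D3:**
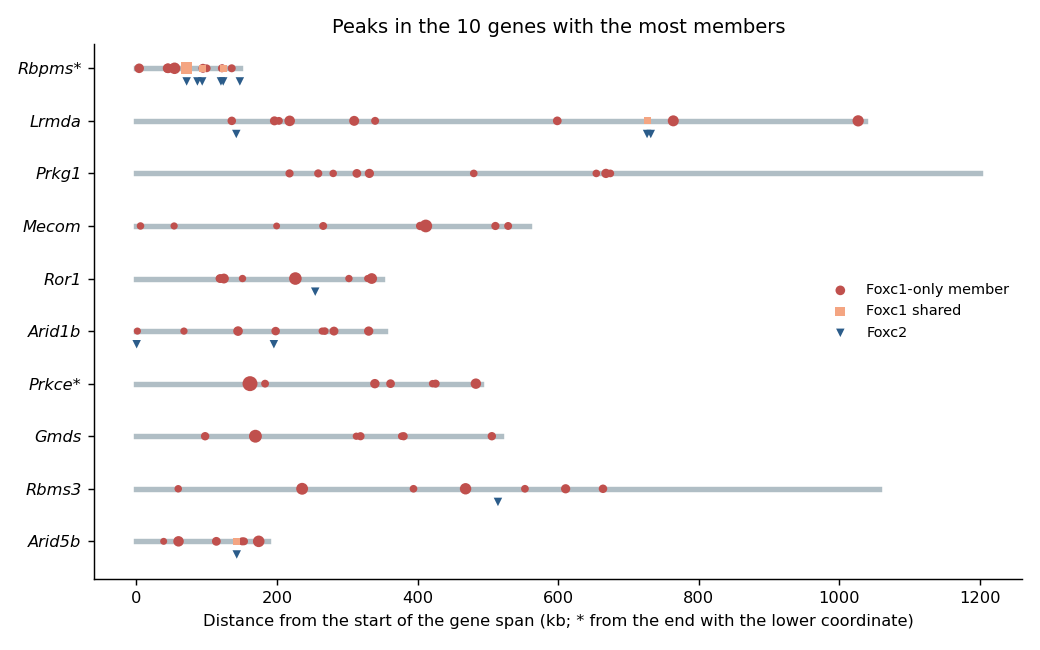
Positions of peaks along the 10 genes with the most members (ties at 7 taken by highest fold), in kb from the start of the span (for genes marked *, from the lower coordinate), with members in red, shared Foxc1 peaks in a second colour and Foxc2 peaks as triangles. Marker size grows with fold for Foxc1, and Rbpms holds 9 members and 6 Foxc2 peaks in 147 kb.

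Members lay throughout gene bodies and were denser near starts. Strand was known for the hosts of 1971 members, whose median distance from the start of the span was 46.6 kb. Over all gene bodies searched there were 2.50 members per Mb (2.40 to 2.60). Density was 5.28 per Mb (4.15 to 6.62) at 1 to 2 kb from the start, from 75 members, and 3.90 (3.31 to 4.56) at 2 to 5 kb. It lay between 2.38 and 2.91 from 5 to 200 kb, and was 2.00 at 200 to 500 kb and 1.26 (0.994 to 1.57) beyond 500 kb, where only the longest genes contribute. The first 10% of the span held 231 members (11.7%), in 8.67% of the sequence searched, and the last 10% held 140 (7.10%), in 8.64%. At a fold of 5 or more the first 10% held 10.2% of members (8.33 to 12.4%), an interval that includes 8.67%. With as many of the strongest Foxc1 peaks as the Foxc2 list holds, it held 10.7% (8.90 to 12.7%), an interval that does not. Within 5 kb of an annotated start of the host, internal starts included, lay 319 of the 1971 members (16.2%). The share of the sequence searched within that distance was not computed, so this count does not measure density.

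**Figure D4:**
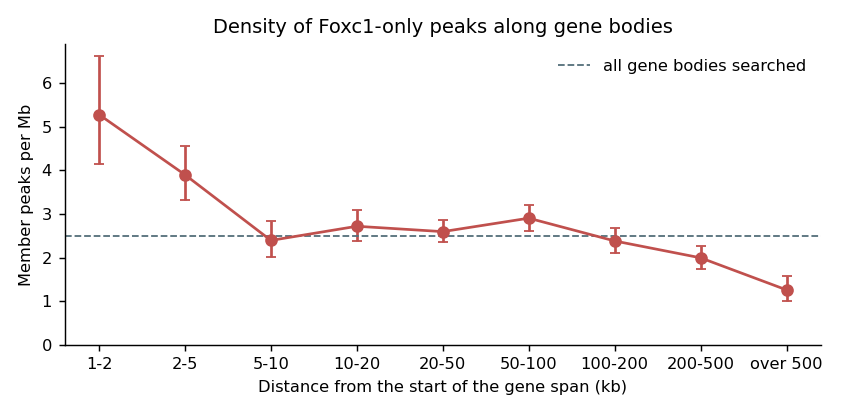
Members per Mb of gene body by distance from the start of the gene span (kb), with exact 95% Poisson intervals as bars and the level over all gene bodies searched as a dashed line. Density is 5.28 per Mb at 1 to 2 kb and 1.26 beyond 500 kb.

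The members farthest from a gene end were in very long genes. Magi2, a scaffold gene of the slit diaphragm (the junction between foot processes), held 2 members 651 and 615 kb from its nearer end. Others lay 574 kb from an end in Dpp10, 558 kb in Robo2, a receptor for Slit ligands, and 553 kb in Pde4d, a cyclic AMP phosphodiesterase gene. The widest member, of 1426 bp, was in Eif4g3, a translation initiation factor gene, followed by 977 bp in Mpzl1, 952 bp in Tox2, 938 bp in Arhgap24 and 864 bp in Cxxc5.

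The X chromosome was poor in members. It held 17, or 0.389 per Mb of gene body (0.226 to 0.622), while autosomes had between 1.94 on chromosome 1 and 3.37 on chromosome 17, and the Y chromosome had 0. All Foxc1 peaks on X numbered 32 and Foxc2 peaks 3.

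Genes that hosted a member often held Foxc2 elsewhere. Of the 1743 hosts, 468 (26.9%, 24.8 to 29.0%) had a Foxc2 summit in the span, beside 7.58% of all protein-coding genes and 5.91% of genes without a member. When genes without a member were weighted to the span classes of the hosts, the share was 9.41%. Hosts of 100 to 300 kb carried Foxc2 in 33.2% (29.4 to 37.1%) and other genes of that class in 12.0% (10.3 to 13.9%). The share was 21.4% with 1 member, 42.8% with 2 or more and 52.2% with 4 or more, and these hosts also differ in length.

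The balance of members and Foxc2 peaks differed between genes. After Rbpms came Lrmda, which held 9 members and 3 Foxc2 peaks. Itgb5, an integrin beta chain gene, followed with 3 members and 8 Foxc2 peaks, and it also held 4 shared Foxc1 peaks. Maml3, a coactivator of Notch, held 6 members and 5 Foxc2 peaks, and Arid1b 8 and 2. For single members, the median gap to the nearest Foxc2 peak was 142.6 kb. It was within 10 kb for 256 (10.4%, 9.20 to 11.6%), beside 17.1% (13.7 to 20.9%) of Foxc1-only peaks at gene ends, 10.3% of those between genes near an end and 2.54% of those farther out.

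The rule's edges passed between similar peaks. Just inside the distance limit were peaks in Mgst2, 1003 bp from an end (fold 5.06), and Podxl, 1022 bp (11.7), and just outside were peaks in Rai14, 992 bp (4.75), and Pdgfra, 975 bp (8.54). The smallest gaps to a Foxc2 peak that still made a member were 14 bp in Mbnl1 and 15 bp in Rdh1, and the smallest overlaps that did not were 12 bp in Ets1 and 29 bp in Plpp3.

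Some members came in groups. Another Foxc1 peak of any class lay within 10 kb of 413 members (16.7%, 15.3 to 18.3%), beside 16.2% at gene ends, 13.9% between genes near an end and 9.64% (7.62 to 12.0%) farther out. Joined within 10 kb, members formed 163 groups of 2 or more and 14 of 3 or more. The only group of 4 was in Synpo, the synaptopodin gene, whose product binds actin in foot processes, over 12.3 kb with folds of 4.90, 4.0, 4.11 and 4.59. Zfand5 held 3 in 2.12 kb, with folds of 20.7, 5.38 and 3.80. Groups of 3 also lay in Cabcoco1, in Plxnb2, a semaphorin receptor gene, and in Pla2r1. The last encodes a phospholipase A2 receptor, an autoantigen of human membranous nephropathy. The 3 in Pla2r1 had folds of 5.06, 6.33 and 5.06.

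Hosts were set against 22 gene lists of cell types and pathways, which were drawn up with earlier results from these peaks known. Their counts are descriptions, each given beside the share of all protein-coding genes weighted to the list's span classes. Of 862 listed genes, 250 held a member (29.0%). Some genes belong to several lists, such as Fhl2 in the focal adhesion and the mesangial list, so the lists are not independent. In 12 of the 22 lists the interval of the share lay above the weighted share, and in 0 below it. Without genes whose peaks were already known, 9 lists did, and the basement membrane, Notch and endothelial lists no longer did. List shares with a Foxc2 summit, given below for some lists, include the genes already known.

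The slit diaphragm and podocyte list had 25 hosts of 50 (50%, 35.5 to 64.5%), beside 20.2%. Without the genes already known, it had 13 of 34 (38.2%), beside 17.3%. Magi2 held 6 members, of folds 3.64, 3.48, 3.80, 4.75, 16.6 and 5.06. Synpo, Pard3, a polarity scaffold gene, and Fyn, the kinase that phosphorylates nephrin, held 4 each, none above 4.90. Plce1, a phospholipase C gene of nephrotic syndrome, held 2 (3.63 and 3.71), and Podxl, the gene of the surface sialomucin podocalyxin, held 1 (11.7). Nphs1, which encodes nephrin, held none. Foxc2 summits lay in 28 of the 50 genes (56%, 41.3 to 70%), beside 12.5% of all genes weighted in the same way. That Foxc2 share includes the genes already known and was not computed without them, so it is a description of this list only.

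Of 31 podocyte transcription factor genes, 13 held a member (41.9%, 24.5 to 60.9%), beside 17.0%. Tcf4, Ets1, Zeb2 and Nr3c1, the glucocorticoid receptor gene, held 2 each. Wt1, a zinc finger regulator of podocytes, held 1 (fold 3.80, 2.26 kb from an end), and Lmx1b, the homeodomain gene of nail-patella syndrome, held 1 (4.90, 4.66 kb from the start). Tcf21, and Foxc1 and Foxc2 themselves, held none. These 3 genes are short, so few positions in them are more than 1 kb from an end.

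Genes of adhesion and the cytoskeleton were frequent hosts. Focal adhesion and integrin genes gave 20 of 41 (48.8%, 32.9 to 64.9%), beside 16.8%, and actin genes 23 of 48 (47.9%, 33.3 to 62.8%), beside 22.5%. Fhl2, a LIM-domain protein gene, held 4 members of folds 25, 5.0, 3.43 and 14.9 and 0 Foxc2 peaks. Itga9, an integrin alpha chain gene, held 4 (up to 9.02), and Tns3, a tensin gene, held 3. Palld, which encodes the actin-binding palladin, held 4. Myh9, the nonmuscle myosin gene mutated in inherited nephropathy, held 3 (11.2, 4.11 and 4.50), and Myo1e, a podocyte myosin gene, held 3, reaching 8.54.

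Basement membrane and matrix genes gave 17 of 42 (40.5%, 25.6 to 56.7%), beside 21.8%. Nid1, which encodes nidogen, held 2 (4.90 and 17.7). Col4a3 and Col4a1, collagen IV chains of the glomerular and of most other basement membranes, and Lamb1, a laminin chain gene, held 2 each, none above 5.54. Without the genes already known, it was 14 of 39 (35.9%, 21.2 to 52.8%), beside 22.3%. Foxc2 summits lay in 4 of these 42 genes (9.52%, 2.66 to 22.6%), beside 14.2%.

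Mesangial and pericyte genes gave 14 of 36 (38.9%, 23.1 to 56.5%), beside 11.8%, and 10 of 30 (33.3%), beside 11.5%, without genes already known. After Prkg1 and Fhl2 came Ptn, a heparin-binding growth factor gene, with 3 members (3.38, 3.64 and 12.2), and Ebf1 with 3. A Foxc2 summit lay in 2 of the 36 genes (5.56%, 0.680 to 18.7%), beside 9.28%, a share its interval includes. Endothelial genes gave 14 of 42 (33.3%, 19.6 to 49.5%), beside 17.1%, led by Mecom and by Sema5a, a semaphorin gene with 6 members. Without the genes already known it was 11 of 39 (28.2%, 15 to 44.9%), beside 16.5%. Parietal cell genes gave 5 of 22 (22.7%, 7.82 to 45.4%), beside 12.6%, an interval that includes it.

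**Figure D5:**
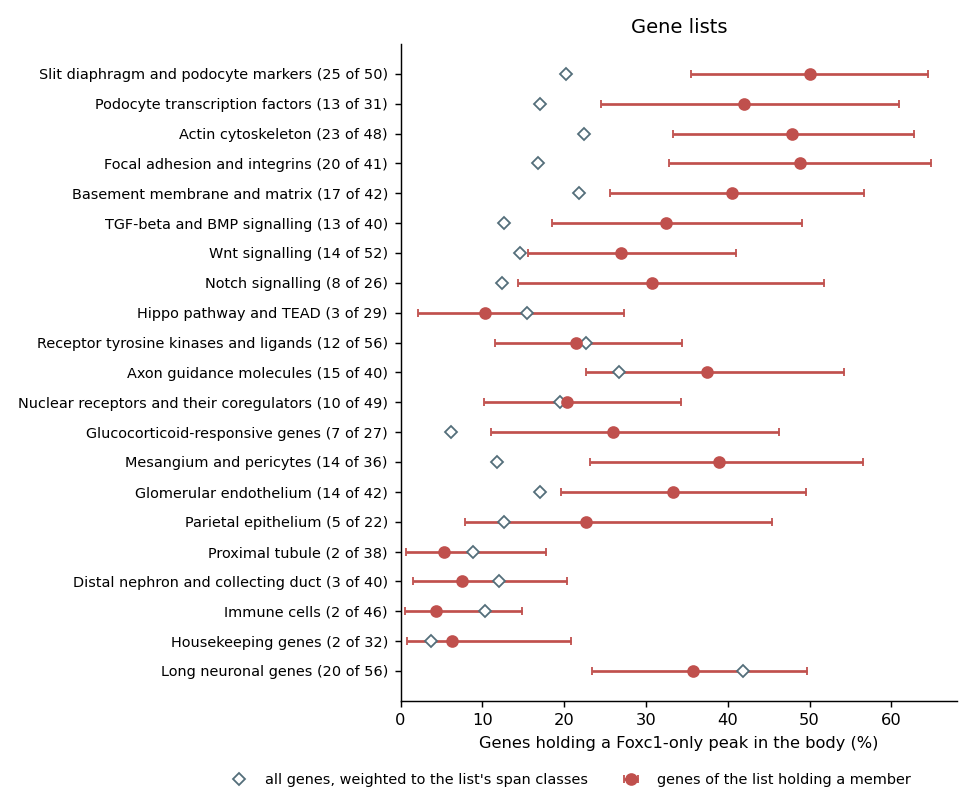
Percentage of genes in each of 21 of the lists that hold a member (red, with exact 95% intervals) beside the share of all protein-coding genes weighted to the list's span classes (open diamonds). Slit diaphragm genes stand at 50% beside 20.2%, and immune genes at 4.35% beside 10.4%.

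Signalling lists divided. TGF-beta and BMP genes gave 13 of 40 (32.5%, 18.6 to 49.1%), beside 12.7%. Bmpr2, a type II BMP receptor gene, held 3 members (13.4, 11.1 and 4.25) and Tgfbr3, the betaglycan gene, held 2 (5.54 and 12.3), both without Foxc2. Notch genes gave 8 of 26 (30.8%, 14.3 to 51.8%), beside 12.4%, with Maml2 at 3 members and Notch2 at 1 (10.9). Without the genes already known they gave 6 of 24 (25%, 9.77 to 46.7%), beside 10.4%. Wnt genes gave 14 of 52 (26.9%, 15.6 to 41%), beside 14.6%, with 3 members each in the coreceptor gene Lrp5, in Tcf7l1, a factor of the LEF family, and in Lgr4, an R-spondin receptor gene.

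Glucocorticoid-responsive genes gave 7 of 27 (25.9%, 11.1 to 46.3%), beside 6.15%, and 5 of 24 (20.8%), beside 4.95%, without genes already known. Sgk1, a kinase gene induced by steroids, held 3 members (7.12, 4.11 and 4.10), the last of them at an annotated internal start. Zbtb16, a zinc finger gene, held 2 (24.8 and 6.08), and Pik3r1, a regulatory subunit gene of PI3 kinase, held 2 (8.70 and 14.1).

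Several lists stood near the weighted share. Receptor tyrosine kinases and their ligands gave 12 of 56 (21.4%, beside 22.7%), nuclear receptors 10 of 49 (20.4%, beside 19.4%) and axon guidance genes 15 of 40 (37.5%, beside 26.8%, interval 22.7 to 54.2%). Hippo pathway genes gave 3 of 29 (10.3%, beside 15.5%), led by the kinase gene Lats2 with 2 members, while 9 of them had a Foxc2 summit (31%, 15.3 to 50.8%), beside 12.1%. Long neuronal genes, with a median span of 1135 kb, gave 20 of 56 (35.7%, beside 41.9%), with Sox5 at 6 members.

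Tubule, immune and housekeeping lists had between 2 and 3 hosts each. Proximal tubule genes gave 2 of 38 (5.26%, 0.644 to 17.7%), beside 8.84%, namely Cubn, the albumin receptor cubilin, with 3 members, and the bicarbonate cotransporter gene Slc4a4 with 1. Distal nephron genes gave 3 of 40 (7.5%), beside 12.1%, with the sodium-calcium exchanger gene Slc8a1 at 4 members. Immune genes gave 2 of 46 (4.35%, 0.531 to 14.8%), beside 10.4%, namely Arhgap15 and Dock8, and 0 had a Foxc2 summit (up to 7.71%), beside 8.18%. Housekeeping genes gave 2 of 32 (6.25%), beside 3.70%, namely Tfrc and Ywhaz. For genes holding a member, the intervals of all 4 lists include the weighted share. The upper limit for Foxc2 in immune genes lies below its own weighted share.

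Restricting the members to a fold of 5 or more lowered the number of hosts from 1743 to 962 (55.2%). Slit diaphragm and podocyte genes then had 12 of their 25 hosts, podocyte transcription factors 5 of 13, actin genes 13 of 23 and Notch genes 4 of 8. Mesangial genes had 10 of 14, TGF-beta and BMP genes 10 of 13, and glucocorticoid-responsive genes 6 of 7. Among single genes, Rbpms had 5 of its 9 members at this height, Prkg1 3 of 9 and Mecom 2 of 8. Differences between lists were not tested.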

How the data were processed

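ChIP-seq of mouse glomeruli was analysed from 1 deposited peak list per antibody. The submitters' processing notes name Bowtie2, MACS2 and the mm10 build. Versions, settings, control, filters and pooling were not given in the sources used here. Fold enrichment, as deposited, is a ratio to local background by the authors' peak caller. Minus log10 p and q values (−log10) were deposited, and every Foxc1 peak had a q-value of 0.0470 or less. The deposited score column, 10 times the −log10 q, was not used.

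Overlap, gene spans, distances and list counts were computed in Python 3.11.15 with pandas 2.3.3 and scipy 1.17.1, and checked on simulated data. Genes and start windows came from RefSeq tables of GRCm38.p6. Strand was taken from the start windows, known for 17492 of 21887 protein-coding genes, with chromosome 18 not analysed there. All 863 list names matched, 1 through an older symbol, giving 862 genes. Shares carry exact Clopper-Pearson 95% intervals and densities exact Poisson ones, treating peaks and genes as independent.

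The members and lists were chosen with earlier results of these data known. Named, as a selection, were the 15 strongest members, the 10 hosts with the most members, up to 4 hosts per list, the 5 densest groups, the 5 deepest and 5 widest members, the 5 hosts with most peaks of both kinds, and 12 genes always examined. The start windows shown, the hosts at the edges of the rule and the neighbour relation of Gmds were chosen after the values were seen. Exons, introns and the planned motif scan at summits were not analysed here, because no genome sequence was used. Values for 1 list and for some genes that this rule names were left out of the text, and counts over all 22 lists include them.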

Additional observations from a re-analysis of the deposited data

How the results depend on the processing

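Alternatives changed 1 choice at a time. Stricter peak sets moved most values: with a fold of 5 or more there were 1127 members in 962 hosts, with a median fold of 6.64, 10.2% in the first 10% of the span, 14.0% of hosts with 2 or more members, 18% of listed genes as hosts, 31.4% of hosts with Foxc2 and 8.52% of members with another Foxc1 peak within 10 kb. With as many of the strongest Foxc1 peaks as the Foxc2 list holds, the corresponding values were 1331 members, 1099 hosts, a median fold of 6.17, 16.6% of hosts with 2 or more, 20.5% of listed genes, 30.7% with Foxc2 and 10.1% within 10 kb. With a q-value under 1e-05 the median was 5.06 and the last share 15.1%. Beyond 5 kb from gene ends, 6.26% lay in the first 10%, 27.5% of hosts had 2 or more members and 29.6% had Foxc2. With no distance set the first 10% held 16.6%. A changed distance also changes how much sequence is searched in the first 10%. That amount was not computed for these settings, so their shares do not show a change in density. With genes of all types, 22.1% of hosts had 2 or more and 23.8% had Foxc2. Genes over 2 kb gave a background of 9.03%, and joining within 25 kb gave 56 groups of 3 or more instead of 14. Each stricter or wider rule changes which peaks or genes are counted, and the cause of the shifts was not tested. In single lists, the count of hosts moved by over 1.5 times in 10 of 22 with a fold of 5 or more, 6 with the strongest peaks, 4 beyond 5 kb from gene ends, 1 with genes of all types, and 3 without genes already known, an alternative chosen after seeing the data. The motif scan at summits and its narrower window were not run. No paired analysis was possible because each antibody has 1 library. Peak lists give no read depth, so weak or missed Foxc2 sites limit which peaks count as Foxc1 alone.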
